A study of Mus musculus with 16 samples.

Results

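Hyaluronan is a long, unsulfated sugar polymer of the extracellular matrix. Has2, a hyaluronan synthase, makes it at the plasma membrane, and PH20, a hyaluronidase encoded by Spam1 and best known from sperm, cuts it. RNA was sequenced from whole inguinal white fat (iWAT) of a mouse line that makes Has2 in adipocytes and from a mouse line that makes PH20 in adipocytes, which allowed the response to one enzyme to be set against the response to the other. The measure used here is the difference of differences for each gene, (Has2_TG minus Has2_WT) minus (PH20_TG minus PH20_WT), on log2(FPKM + 0.1). FPKM is a fragment count scaled to the length of the gene and the depth of the library. A positive difference of differences means that the gene was higher in the Has2 mice, relative to their own controls, than in the PH20 mice relative to theirs. All 16 libraries of the series entered it, and of 54532 genes in the deposited table, the 12752 with a mean of at least 1 FPKM over the 16 libraries were tested. The last gene inside this limit was Zfp667 with 1.00 FPKM, and the first one outside was Zfp341.

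The 4 groups held 4 libraries each. Has2_TG were Apn-Has2 mice, in which rtTA under the adiponectin promoter drives a Has2 cDNA behind a TRE promoter, and Has2_WT were their Apn-rtTA littermates. PH20_TG were Apn-PH20 mice with a PH20 cDNA behind the same promoter, and PH20_WT were the Apn-rtTA littermates of that line. All mice were male, entered the experiments from 8 to 10 weeks of age and had eaten doxycycline chow (200 mg/kg) over 5 days, controls too, so that rtTA and doxycycline were shared by all groups. The adiponectin promoter is active in adipocytes, whereas the libraries hold whole tissue, and in such bulk samples fewer cells of a type and less RNA per cell cannot be told apart. The 2 lines have separate controls, so the line and its litters cannot be told apart from the enzyme. The libraries are listed as separate samples, and p-values measure the spread between them.

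The transgenes were read first. Has2 lies on chromosome 15 of GRCm38 from 56665627 to 56694539, and reads of the cDNA and of the endogenous gene were not separated. Has2 was at 2.28, 1.86, 3.24 and 2.97 FPKM in Has2_TG1 to Has2_TG4 and at 0.806, 0.474, 0.417 and 0.643 FPKM in Has2_WT1 to Has2_WT4. It was at 3.32, 0.380, 0.0990 and 3.26 FPKM in PH20_TG1 to PH20_TG4 and at 0.897, 0.765, 0.455 and 0.330 FPKM in PH20_WT1 to PH20_WT4. All Has2_TG libraries thus lay above all Has2_WT libraries, and PH20_TG1 and PH20_TG4 had as much Has2 mRNA as the Has2_TG libraries. The log2 difference of differences of Has2 was 1.37 (95% interval -0.85 to 3.59, limma adjusted p = 0.801). Spam1 had 6, 12 and 5 reads in PH20_TG2, PH20_TG3 and PH20_TG4, whereas PH20_TG1 and all 12 libraries outside PH20_TG had 0. Since 0 reads leave room for as many as 3, Spam1 was not detectable at this depth in PH20_TG1, and it was below the limit for testing.

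Several libraries stood apart from their group before any comparison. The mean log2(FPKM + 0.1) of 14 B cell genes was 5.01, 4.49, 4.79 and 3.34 in Has2_WT1, Has2_WT2, PH20_WT1 and PH20_WT3, and between -1.44 and -0.50 in the other 12 libraries. The 20 skeletal muscle genes averaged 2.04 to 3.51 in the 4 PH20_WT libraries, 2.42 and 3.34 in Has2_TG1 and Has2_TG2, and -2.12 and -2.23 in Has2_TG3 and Has2_TG4. In PH20_TG they averaged -1.18, -1.68, 0.27 and 2.16. The adipocyte list, which holds Adipoq and Plin1, averaged 8.20 to 9.58 in all 16 libraries. Between 14421692 and 26751729 reads per library fell on genes. Genes with at least 1 read numbered 20416 to 21986 in Has2_WT2, Has2_WT3, Has2_TG2, PH20_WT3, PH20_TG2, PH20_TG3 and PH20_TG4. They numbered 15857 to 18573 in the remaining libraries.

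**Figure D1:**
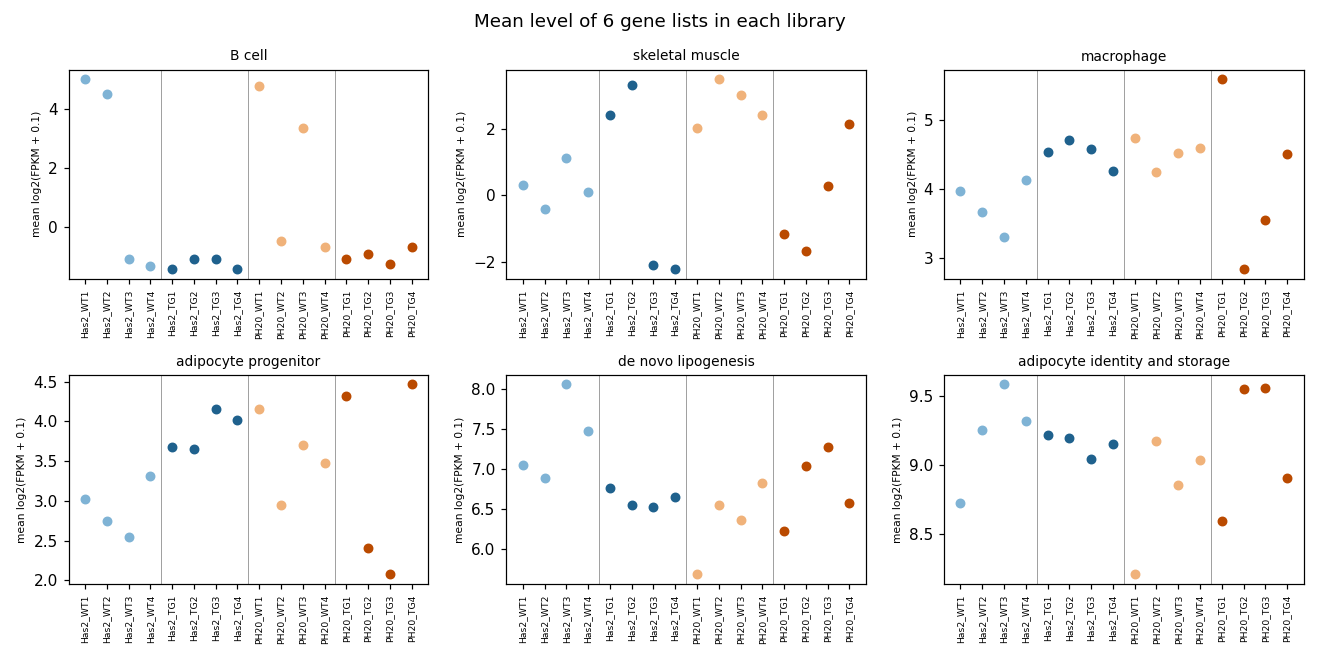
Mean log2(FPKM + 0.1) of 6 gene lists (y axis) in each of the 16 libraries (x axis, vertical lines between the groups). The B cell genes were high in 4 control libraries and low in all 8 transgenic ones, whereas the progenitor and macrophage genes split the PH20_TG group, with PH20_TG2 and PH20_TG3 below PH20_TG1 and PH20_TG4.

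No gene passed an adjusted p of 0.05 for the difference of differences (limma, all 16 libraries in 1 fit, smallest adjusted p = 0.196), and voom weights on the recovered reads also gave 0 genes. At an unadjusted p under 0.05, the threshold used for a call throughout, 466 genes (3.65% of those tested) had a higher and 489 genes (3.83%) a lower difference of differences. Scaled to the total reads on genes, the counts were 643 higher and 323 lower, with 66.6% of the calls higher against 48.8% in the deposited scaling. That scaling moved the median difference of differences of all genes from -0.04 to 0.06. Few of these genes were also called in both single comparisons. Of the 466 higher genes, 278 were called in the Has2 comparison alone, 82 in the PH20 comparison alone, 9 in both and 97 in neither. Of the 489 lower genes, 193 were called in the Has2 comparison alone, 133 in the PH20 comparison alone, 32 in both and 131 in neither. The 2 lines differed in sign for 433 of the higher and 464 of the lower genes, which the choice of genes favours. In the Has2 comparison, 767 genes (6.01%) were called higher and 608 (4.77%) lower in Has2_TG, and in the PH20 comparison, 354 genes (2.78%) were called higher and 266 (2.09%) lower in PH20_TG.

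With all 16 libraries, opposed calls did not outnumber calls in the same direction, but this order depended on the fit. In all, 9 genes (0.0706% of those tested) were called higher in Has2_TG and lower in PH20_TG, and 32 genes (0.251%) were called lower in Has2_TG and higher in PH20_TG. These 41 opposed genes stood beside 46 genes (0.361%) called in the same direction in both lines, 31 of them higher and 15 lower. The groups of both lines separated without overlap in opposite directions for 7 genes (0.0549%) and in the same direction for 14 genes (0.110%). Over all 12752 genes, the Has2 and PH20 differences had a Pearson r of 0.14 and a Spearman rho of 0.06, given as a description across genes, which share their libraries. The 2 differences had opposite signs for 6170 genes, 48.4%. The number of opposed genes moved with single libraries, to 70 without Has2_WT1, 94 without PH20_TG1 and 75 without PH20_TG4, and to 27, 27 and 25 without Has2_WT3, PH20_TG2 and PH20_TG3. Without Has2_WT1, PH20_TG1 or PH20_TG4, the same-direction calls were 27, 29 and 25, fewer than the opposed ones. Without Has2_WT4 they were 72, against 35 opposed genes. The skeletal muscle score as a covariate gave 51 opposed and 25 same-direction genes, and the B cell score gave 20 and 70.

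**Figure D2:**
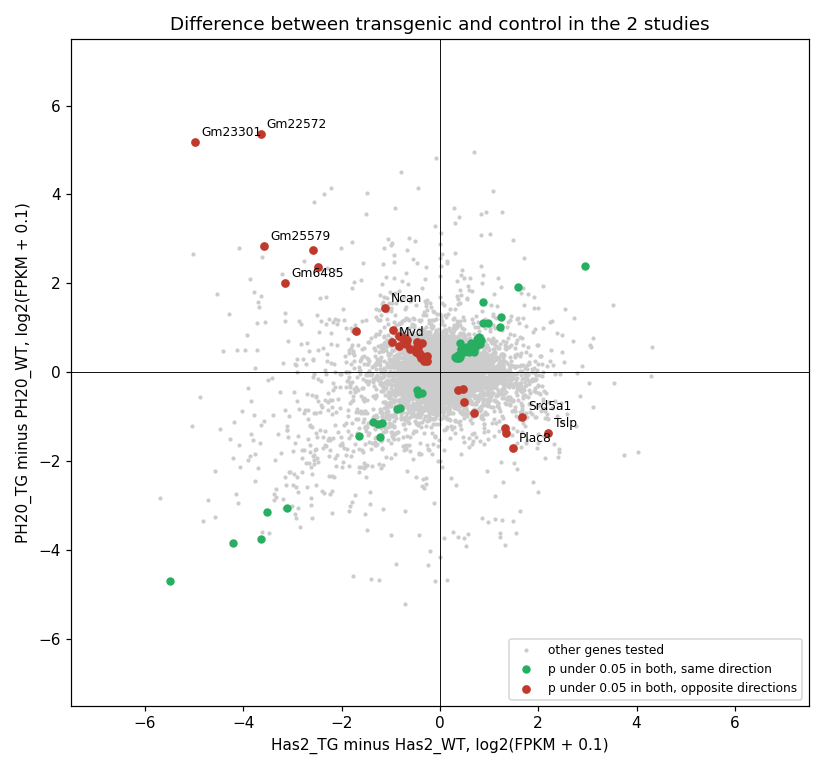
The log2 difference between transgenic and control libraries in the Has2 line (x axis) and the PH20 line (y axis) for each of the 12752 genes tested, on log2(FPKM + 0.1). The 41 opposed genes (red) lie in the upper left and lower right quadrants, beside 46 genes called in the same direction (green). The outermost red points, Gm22572 and Gm23301, are small RNA genes with few reads.

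The 9 genes higher in Has2_TG and lower in PH20_TG were Tslp, Plac8, Rpl17-ps8, Srd5a1, Gabre, Cebpzos, Zfp524, Gstm1 and Pfdn5. The rule that picked them used these differences, so their values are a description. Tslp, an epithelial-type cytokine that acts on dendritic and lymphoid cells, was at 2.35, 1.06, 1.46 and 2.11 FPKM in Has2_TG1 to Has2_TG4 and at 0, 0.557, 0.312 and 0.739 FPKM in Has2_WT1 to Has2_WT4. It was at 0.721, 1.11, 0.635 and 1.73 FPKM in PH20_TG1 to PH20_TG4 and at 1.77, 2.41, 3.31 and 3.53 FPKM in PH20_WT1 to PH20_WT4. The groups of neither line overlapped, and Tslp was highest in PH20_WT. Its log2 difference was 2.19 (SE 0.56) in the Has2 line and -1.36 (SE 0.56) in the PH20 line, for a difference of differences of 3.55 (SE 0.80, limma adjusted p = 0.591), on a mean of 31.6 reads per library.

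Srd5a1 encodes a steroid 5-alpha reductase, which converts testosterone to dihydrotestosterone. It was at 1.70, 2.26, 3.36 and 4.13 FPKM in Has2_TG and at 0.606, 0.848, 1.38 and 0.504 FPKM in Has2_WT. In the PH20 line it was at 0.983, 0.709, 0.762 and 2.10 FPKM in PH20_TG and at 1.98, 2.16, 2.39 and 2.14 FPKM in PH20_WT. Only PH20_TG4 reached the level of its controls. The difference of differences was 2.67 (SE 0.53, limma adjusted p = 0.317), the smallest adjusted p of a protein-coding gene.

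Plac8, a small cysteine-rich protein found in immune and fat cells, was at 14.2, 16.5, 17.3 and 16.2 FPKM in Has2_TG and at 7.61, 8.61, 4.22 and 3.75 FPKM in Has2_WT. In PH20_TG it was at 11.2, 1.45, 1.24 and 15.96 FPKM, against 26.3, 5.95, 14.8 and 17.3 FPKM in PH20_WT. The PH20 difference thus rested on PH20_TG2 and PH20_TG3, since PH20_TG1 and PH20_TG4 lay within the range of PH20_WT. Gabre, the epsilon subunit of the GABA-A receptor, had the same form, with 1.90, 0.626, 0.253 and 2.42 FPKM in PH20_TG and 3.75, 1.53, 2.83 and 2.16 FPKM in PH20_WT. It was at 1.91 to 3.12 FPKM in Has2_TG and 0.318 to 1.59 FPKM in Has2_WT.

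Gstm1, a glutathione S-transferase that detoxifies electrophiles, was the most abundant of the 9, and its difference was small and even. It was at 209, 238, 223 and 218 FPKM in Has2_TG and 127, 151, 177 and 191 FPKM in Has2_WT. It was at 165, 152, 141 and 178 FPKM in PH20_TG and 185, 200, 202 and 234 FPKM in PH20_WT. The groups did not overlap in either line, and the difference of differences was 0.84 (SE 0.20, limma adjusted p = 0.591). Gstm1 belongs to a family of close paralogs, so its reads may be shared. The same caution holds for Rpl17-ps8, a processed pseudogene with 21.9 reads per library and a difference of differences of 2.71 (SE 0.54). The remaining 3 genes, Cebpzos, Zfp524 and Pfdn5, had differences of differences of 1.62, 1.17 and 0.76.

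The 32 genes lower in Has2_TG and higher in PH20_TG held 23 protein-coding genes and 9 others. The 5 with the largest differences of differences, Gm23301, Gm22572, Gm25579, B230206L02Rik and Gm6485, were a snoRNA, a pair of snRNAs, a processed transcript and a pseudogene, with 4.69 to 25.5 reads per library. Gm22572 had 14, 4, 3 and 7 reads in Has2_WT1 to Has2_WT4 and 0, 5, 0 and 0 reads in Has2_TG1 to Has2_TG4. It had 0 reads in all 4 PH20_WT libraries and 15, 17, 9 and 1 reads in PH20_TG1 to PH20_TG4. Gm23301 had 72, 6, 5 and 0 reads in Has2_WT, 0 in each Has2_TG library, 0, 0, 3 and 0 in PH20_WT, and 12, 12, 13 and 3 in PH20_TG. Both genes were within 3 reads of 0 in whole groups, so no fold is given. Gm25579 was at or under 12 reads in all libraries but PH20_TG1, with 18, and PH20_TG2, with 14.

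Gm6485, a pseudogene, was at 6.27, 2.35, 1.74 and 1.31 FPKM in Has2_WT and 0.361, 0.549, 0.122 and 0 FPKM in Has2_TG. In the PH20 line it was at 1.19, 0.145, 1.73 and 0.434 FPKM in PH20_WT and 3.59, 1.49, 4.10 and 3.20 FPKM in PH20_TG. B230206L02Rik was at 0.740, 1.93, 2.20 and 3.62 FPKM in Has2_WT and 0, 1.21, 0 and 0.780 FPKM in Has2_TG. It was at 0, 0.549, 1.70 and 0 FPKM in PH20_WT and 1.18, 1.98, 3.51 and 2.42 FPKM in PH20_TG. Of the 41 opposed genes, 10 had a mean under 50 reads. The pseudogenes Gm13597 and Tpi-rs11 also stood among the 6 genes with the smallest p for a lower difference of differences, at -2.64 (SE 0.51, limma adjusted p = 0.317) and -3.41 (SE 0.77, limma adjusted p = 0.591). Reads of pseudogenes may belong to their parent genes.

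Among the protein-coding genes of that direction, Mvd, an enzyme of the mevalonate pathway of cholesterol synthesis, was at 12.3, 8.18, 12.5 and 13.5 FPKM in Has2_WT and 8.77, 5.96, 3.88 and 5.48 FPKM in Has2_TG. It was at 7.54, 6.19, 5.48 and 5.91 FPKM in PH20_WT and 12.3, 14.9, 9.22 and 5.93 FPKM in PH20_TG. The difference of differences was -1.65 (SE 0.39, limma adjusted p = 0.591), and PH20_TG4 lay among its controls. Uba3, the catalytic subunit of the enzyme that activates NEDD8, was at 5.90, 6.87, 8.33 and 7.40 FPKM in Has2_WT and 6.29, 6.28, 4.40 and 5.16 FPKM in Has2_TG. It was at 3.84, 6.37, 5.35 and 4.44 FPKM in PH20_WT and 8.27, 7.47, 8.24 and 7.36 FPKM in PH20_TG, for a difference of differences of -1.02 (SE 0.24, limma adjusted p = 0.591). For Uba3 the PH20 groups separated and the Has2 groups overlapped.

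Prdm16, a transcription factor that directs brown and beige adipocyte identity, was at 1.96, 2.55, 3.002 and 2.51 FPKM in Has2_WT and 1.49, 1.02, 2.44 and 1.46 FPKM in Has2_TG. It was at 1.17, 1.98, 1.51 and 1.499 FPKM in PH20_WT and 2.12, 4.26, 2.73 and 1.81 FPKM in PH20_TG. Both lines overlapped by 1 library, and the difference of differences was -1.40 (SE 0.41, limma adjusted p = 0.591). Ncan, which encodes the hyaluronan-binding proteoglycan neurocan, was at 1.65, 1.66, 3.04 and 3.80 FPKM in Has2_WT and 0.799, 0.636, 1.14 and 1.91 FPKM in Has2_TG. It was at 0.334, 0.645, 0.578 and 0.238 FPKM in PH20_WT and 0.608, 3.52, 1.67 and 0.800 FPKM in PH20_TG, for a difference of differences of -2.57 (SE 0.73, limma adjusted p = 0.591).

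The 23 protein-coding genes had differences of differences between -2.57 and -0.53, from -1.13 to -0.27 in the Has2 line and from 0.25 to 1.45 in the PH20 line. Besides those above they were, named after their values were seen, Tmem241, Tmem268, Pcbp1, Piezo1, Adap1, Mapkapk3, Rreb1, Pald1, Gpr146, Ssfa2, Bysl, Kif3b, Avpi1, Tmem246, Scaf1, Hnrnpab, Zmat3, Azin1 and Dag1. Piezo1 is a mechanically gated cation channel, and Dag1 encodes dystroglycan, a receptor for laminin. Among the opposed genes of this direction, the groups of both lines did not overlap for Tmem241 and Tmem268 and overlapped in at least 1 line for the other 30. Tmem268 was at 7.01 to 10.6 FPKM in Has2_WT, 4.56 to 6.84 in Has2_TG, 3.90 to 5.17 in PH20_WT and 5.36 to 8.60 in PH20_TG.

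**Figure D3:**
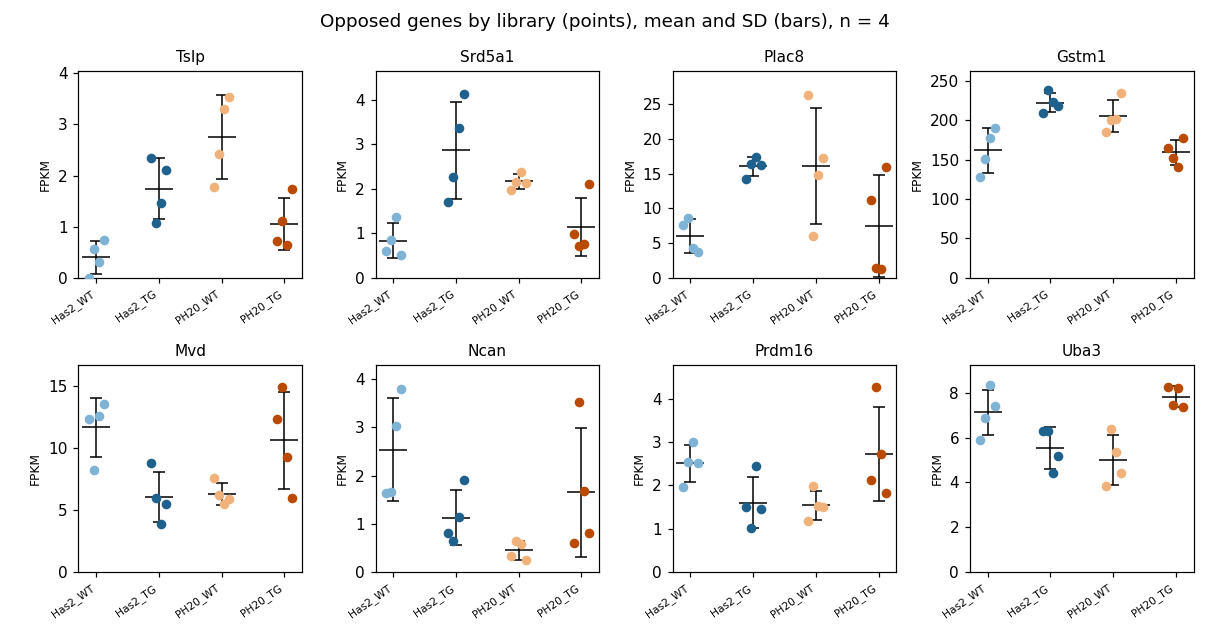
FPKM (y axis, from 0) of 8 opposed genes in the 4 groups (x axis), with 1 point per library and bars for the mean and SD (n = 4). In the upper row, the mean of Has2_TG lies above that of Has2_WT and the mean of PH20_TG below that of PH20_WT. In the lower row the order of the means is reversed, and in several genes single libraries of the groups overlap. The means of the control groups differ from each other in the opposite sense in all 8 genes.

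The control groups enter the difference of differences with opposite signs, so their own values were compared. Has2_WT and PH20_WT differed at the unadjusted threshold for 1282 genes (10.1% of those tested), more than the 844 (6.62%) for Has2_TG against PH20_TG. No gene passed an adjusted p of 0.05 in either (limma, smallest adjusted p = 0.0915 and 0.0725). Among the opposed genes, the controls differed for 36 of 41. The choice of the genes favours a difference between the controls of the opposite sign, so no test was made of this count. Of the 466 genes with a higher difference of differences, 199 were called between the controls in the opposite direction, and of the 489 lower genes, 268 were. For Tslp, Has2_WT was 2.83 below PH20_WT on the log2 scale, whereas the 2 transgenic groups differed by 0.72.

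Adipocytes make fatty acids from acetyl-CoA in a short chain of enzymes under the transcription factors SREBP1c and ChREBP, and the enzymes of cholesterol synthesis are under the related SREBP2. All 19 genes of the de novo lipogenesis list were tested, and 10 of them had a lower and 0 a higher difference of differences, against 3.83% and 3.65% of all genes. The list median was -1.08 against -0.04 for all genes. In the Has2 comparison 8 of the 19 were called lower in Has2_TG, with a list median of -0.68, and in the PH20 comparison 0 were called in either direction, with a list median of 0.45. Between the controls 14 of the 19 were called, all of them higher in Has2_WT than in PH20_WT (list median 1.00), and between the transgenic groups 0 of 19 were called (list median -0.18). No member passed an adjusted p (limma, smallest adjusted p = 0.591). For the single comparisons of this and each later list, the shares of all genes were 6.01% higher and 4.77% lower in the Has2 line. They were 2.78% higher and 2.09% lower in the PH20 line, 10.1% between the controls and 6.62% between the transgenic groups.

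Acly, which makes cytosolic acetyl-CoA from citrate, was at 425, 285, 1272 and 565 FPKM in Has2_WT and 181, 138, 159 and 129 FPKM in Has2_TG. It was at 71.1, 126, 138 and 278 FPKM in PH20_WT and 116, 171, 398 and 179 FPKM in PH20_TG. The Has2 groups separated and the PH20 groups overlapped, and PH20_TG3 lay within the range of Has2_WT. The difference of differences was -2.36 (SE 0.66, limma adjusted p = 0.591). Acss2, which activates acetate, was at 45.9, 35.6, 126 and 62.5 FPKM in Has2_WT and 24.5, 22.8, 26.7 and 27.2 FPKM in Has2_TG. It was at 12.0, 21.0, 18.4 and 28.9 FPKM in PH20_WT and 16.1, 33.8, 35.05 and 25.0 FPKM in PH20_TG, for a difference of differences of -1.70 (SE 0.50). Fasn, the fatty acid synthase, named after its values were seen, was at 1254 to 3490 FPKM in Has2_WT, 707 to 981 in Has2_TG, 348 to 1003 in PH20_WT and 572 to 1563 in PH20_TG. In these 3 genes Has2_WT3 was the highest and PH20_WT1 the lowest of all 16 libraries. Leaving out 1 library at a time moved the count of lower genes from 10 to between 7 and 16, with 16 without PH20_TG1. Without the 4 control libraries rich in B cell genes, a choice made after the data were seen, it was 8. Here and below, that fit had Has2_WT3, Has2_WT4, PH20_WT2 and PH20_WT4 as its only controls, so a lost call may reflect fewer libraries.

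Of the 22 cholesterol synthesis genes tested of 24, 6 (27.3%, against 3.83% of all genes) had a lower and 0 a higher difference of differences (list median -0.70). They were Mvd, Lss, Nsdhl, Dhcr7, Cyp51 and Insig1. Lss, which closes the sterol ring, was at 3.66, 3.70, 7.68 and 5.83 FPKM in Has2_WT and 4.45, 2.15, 2.58 and 2.004 FPKM in Has2_TG. It was at 1.45, 2.89, 2.01 and 1.74 FPKM in PH20_WT and 2.16, 4.28, 4.06 and 2.06 FPKM in PH20_TG, and the groups overlapped in both lines. Between the controls 11 of the 22 were called, all higher in Has2_WT, and between the transgenic groups 1 was. The count of lower genes was 4 to 10 with 1 library left out at a time, and 10 without PH20_TG1.

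Glycolysis and the storage genes of the adipocyte had medians of the same sign. Of 15 glycolysis genes tested of 16, 4 (26.7%, against 3.83% of all genes) had a lower difference of differences (Pgam1, Pkm, Hk2 and Eno1). The list median was -0.55, and 8 genes were called higher in Has2_WT than in PH20_WT. Pgam1 was at 97.6, 106, 170 and 103 FPKM in Has2_WT, 103, 74.9, 62.3 and 59.0 in Has2_TG, 46.5, 76.1, 60.5 and 66.7 in PH20_WT and 63.4, 87.4, 94.6 and 62.0 in PH20_TG. Pkm, the pyruvate kinase, had a difference of differences of -0.93 (SE 0.36). The count was 2 without PH20_TG3, 2 without the 4 control libraries rich in B cell genes and 8 with the skeletal muscle score as a covariate. Of the 21 adipocyte identity and storage genes, 4 (19.0%) had a lower difference of differences (Gpd1, Agpat2, Slc2a4 and Dgat2, list median -0.36). The same 4 genes were those called between the controls, all higher in Has2_WT. Gpd1, which makes glycerol phosphate for triglycerides, was at 649, 782, 1400 and 805 FPKM in Has2_WT, 572, 508, 477 and 404 in Has2_TG, 201, 423, 318 and 441 in PH20_WT and 277, 555, 866 and 406 in PH20_TG. Agpat2, an acyltransferase of the same route, had a difference of differences of -1.30 (SE 0.49). The count of lower storage genes was 2 without any 1 of Has2_WT3, Has2_WT4, Has2_TG2, PH20_WT1, PH20_WT3, PH20_TG2 and PH20_TG3.

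**Figure D4:**
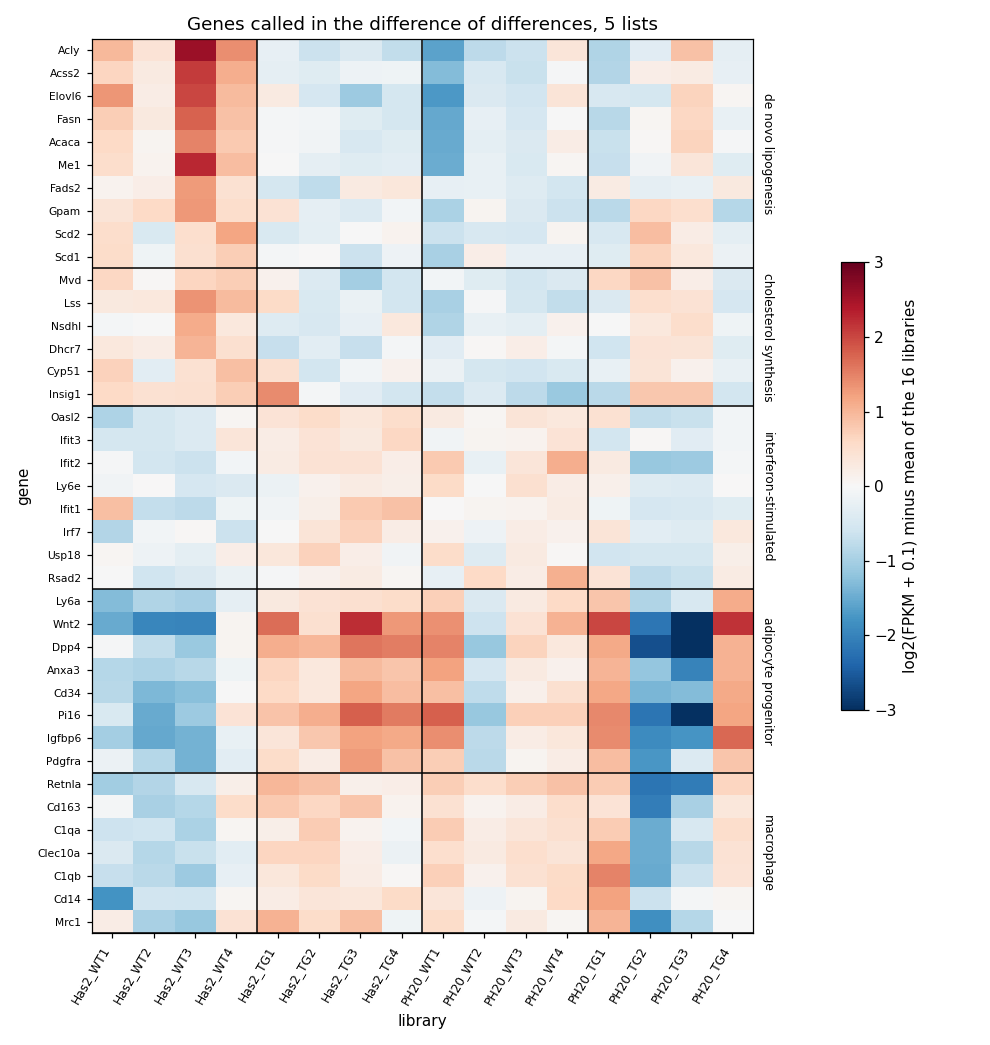
log2(FPKM + 0.1) of 39 genes (rows) in the 16 libraries (columns), relative to the mean of each gene over the 16 libraries. The rows are the genes called in the difference of differences in 5 lists. On average, the lipogenesis and cholesterol genes are highest in Has2_WT3 and Has2_WT4, and the progenitor and macrophage genes are lowest in PH20_TG2 and PH20_TG3, relative to the other libraries.

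The interferon-stimulated genes had a median of the opposite sign. These genes answer to interferons through transcription factors that bind the interferon-stimulated response element. Of 23 tested of 24, 8 (34.8%, against 3.65% of all genes) had a higher and 0 a lower difference of differences (list median 0.46). They were Oasl2, Ifit3, Ifit2, Ly6e, Ifit1, Irf7, Usp18 and Rsad2. In the Has2 comparison 3 were called higher in Has2_TG and in the PH20 comparison 2 were called lower in PH20_TG, with list medians of 0.34 and -0.23. Oasl2, an antiviral protein of the OAS family, was at 6.68, 7.38, 6.32 and 7.21 FPKM in Has2_TG and 2.58, 3.45, 3.77 and 5.22 FPKM in Has2_WT. It was at 6.91, 2.98, 3.11 and 4.69 FPKM in PH20_TG and 6.04, 5.26, 6.62 and 6.23 FPKM in PH20_WT, for a difference of differences of 1.42 (SE 0.35, limma adjusted p = 0.591). The Has2 groups separated, and PH20_TG1 lay above all PH20_WT libraries. Ifit3, an RNA-binding antiviral protein, was at 20.2, 23.2, 21.3 and 26.7 FPKM in Has2_TG and 12.1, 12.1, 13.1 and 22.4 FPKM in Has2_WT. It was at 11.8, 17.7, 13.8 and 16.4 FPKM in PH20_TG and 16.3, 18.5, 18.7 and 23.2 FPKM in PH20_WT. Between the controls 6 of the 23 genes were called, all lower in Has2_WT. The count of 8 was 5 without PH20_TG2 and 5 without PH20_TG3.

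The core letters GAAANNGAA of that element were searched on both strands of the promoters of RefSeq (build GRCm38.p6, from upstream of each gene start to just past it). They were found in 9 of 15 interferon-stimulated genes with a promoter in the table, against 7.31% of 9122 tested genes and 8.57% of all 27025 promoters. Among the opposed genes they were found in 1 of 6 promoters of the genes higher in Has2_TG (Gstm1) and in 0 of 20 of the other direction. Of the 8 called interferon-stimulated genes, 6 had a promoter in the table, and Ifit3, Ifit1 and Rsad2 carried the letters ahead of the gene start. The windows of 30 bases run 5′ to 3′ on the strand of the gene, with the match, which here reads in the reverse sense (TTCNNTTTC), in capitals.
Ifit3, chr19:34583364-34583393, plus strand, match from 155 bases before the start: agtggtaagtTTCACTTTCctcttctggtt
Ifit3, chr19:34583398-34583427, plus strand, match from 121 bases before the start: ttaagtctgtTTCAGTTTCtactttcctct
Ifit1, chr19:34640776-34640805, plus strand, match from 103 bases before the start: aggcttcagtTTCACTTTCcagtctcagtt
Rsad2, chr12:26456552-26456581, minus strand, match from 119 bases before the start: tggtccaactTTCATTTTCagaaaacagaa

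The windows are shown because the letters come from the genome and not from the measured values. In the promoters of the lipogenesis and cholesterol lists, the letters TCACNCCAC of a sterol response element were found on either strand in 1 of 16 and 1 of 16 genes, against 1.05% of 9122 tested genes with a promoter in the table, and in 0 of the 6 and 0 of the 20 promoters of the opposed genes. A match or its absence in this window says nothing about binding.

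The genes of adipocyte progenitors, the fibroblast-like cells from which new fat cells form, had a list median of 1.27, against -0.04 for all genes. Of 18 tested of 19, 8 had a higher difference of differences (Ly6a, Wnt2, Dpp4, Anxa3, Cd34, Pi16, Igfbp6 and Pdgfra) and 1 a lower one (F3). These were 44.4% and 5.56%, against 3.65% and 3.83% of all genes. In the Has2 comparison 8 were called higher in Has2_TG (list median 1.26), and in the PH20 comparison 1 was called, with a list median of -0.15. Ly6a, which encodes the progenitor marker Sca-1, was at 186, 207, 213 and 223 FPKM in Has2_TG and 61.5, 81.0, 76.8 and 127 FPKM in Has2_WT. It was at 271, 81.1, 110 and 331 FPKM in PH20_TG and 249, 112, 184 and 230 FPKM in PH20_WT. The Has2 groups separated, and the PH20_TG libraries lay on both sides of their controls. F3, tissue factor, was at 14.2, 13.0, 12.9 and 18.2 FPKM in Has2_TG, 13.0, 18.5, 23.1 and 26.0 in Has2_WT, 15.6, 22.5, 17.5 and 18.2 in PH20_TG and 10.96, 15.4, 10.2 and 9.55 in PH20_WT, for a difference of differences of -1.12 (SE 0.30, limma adjusted p = 0.591).

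The PH20_TG group was uneven for these genes. The mean log2(FPKM + 0.1) of the progenitor list was 4.32, 2.41, 2.08 and 4.47 in PH20_TG1 to PH20_TG4, against 2.94 to 4.16 in PH20_WT, 3.65 to 4.16 in Has2_TG and 2.55 to 3.32 in Has2_WT. PH20_TG1 and PH20_TG4 were also the libraries with Has2 mRNA near 3.3 FPKM, and whether these belong together was not tested. The count of 8 was 1 without PH20_WT1, 1 without PH20_TG2, 3 without Has2_WT3, Has2_TG3 or PH20_TG3, 4 without Has2_WT2 and 5 without PH20_WT4. Without the 4 control libraries rich in B cell genes it was 0. In that smaller fit the difference of differences of Ly6a was 1.00, short of the unadjusted threshold, against 1.45 with all 16 libraries.

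Macrophage genes had a list median of 1.14. Of 19, 7 (36.8%, against 3.65% of all genes) had a higher and 0 a lower difference of differences. They were Retnla, Cd163, C1qa, Clec10a, C1qb, Cd14 and Mrc1. In the Has2 comparison 4 were called higher in Has2_TG, and in the PH20 comparison 1 higher and 1 lower. The list medians were 0.77 and -0.47. Between the controls 6 were called, all lower in Has2_WT (Retnla, C1qa, Clec10a, C1qb, Cd14 and Fcgr1, list median -0.79). Retnla, a secreted product of alternatively activated macrophages, was at 1009, 935, 565 and 578 FPKM in Has2_TG and 245, 278, 364 and 575 FPKM in Has2_WT. It was at 853, 111, 118 and 797 FPKM in PH20_TG and 844, 728, 849 and 935 FPKM in PH20_WT, for a difference of differences of 2.55 (SE 0.82, limma adjusted p = 0.606). PH20_TG2 and PH20_TG3 lay far below the controls and the other 2 libraries among them. Cd163, a scavenger receptor of resident macrophages, was at 20.5, 18.2, 21.1 and 12.8 FPKM in Has2_TG, 11.45, 5.99, 6.51 and 17.3 in Has2_WT, 15.7, 2.72, 6.004 and 15.1 in PH20_TG and 16.4, 12.8, 14.0 and 17.1 in PH20_WT. The count of 7 was 17 without PH20_TG1, 4 without Has2_TG2, 4 without PH20_TG2, 3 without PH20_TG3 and 0 without the 4 control libraries rich in B cell genes. In that smaller fit Retnla was at 2.13 and Cd163 at 1.63, both short of the unadjusted threshold, against 2.55 and 1.82 with all 16 libraries. With the skeletal muscle score as a covariate the count was 2.

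Matrix genes other than collagens leaned the same way. Of 42 tested of 45, 8 (19.0%, against 3.65% of all genes) had a higher and 0 a lower difference of differences. They were Ogn, Omd, Fbln1, Aspn, Ecm1, Fn1, Dcn and Lama2 (list median 0.44). In the Has2 comparison 21 of the 42 were called higher in Has2_TG, and in the PH20 comparison 3 were called higher in PH20_TG, with list medians of 0.82 and 0.21. Ogn, the small leucine-rich proteoglycan osteoglycin, was at 69.1, 57.5, 106 and 94.2 FPKM in Has2_TG and 29.9, 18.6, 14.1 and 46.5 FPKM in Has2_WT. It was at 46.8, 18.8, 16.7 and 55.8 FPKM in PH20_TG and 81.4, 24.4, 47.8 and 42.8 FPKM in PH20_WT, for a difference of differences of 2.26 (SE 0.65, limma adjusted p = 0.591). Omd, the related osteomodulin, had a difference of differences of 2.90 (SE 1.01). The count of 8 was 16 without PH20_TG1, 16 without PH20_TG4, 4 without PH20_TG2, 5 without PH20_TG3 and 0 without the 4 control libraries rich in B cell genes. In that smaller fit Ogn was at 1.73 and Omd at 2.10, both short of the unadjusted threshold.

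Of 19 collagens tested of 30, 9 were called higher in Has2_TG and 0 lower, and 7 were called higher and 1 (Col23a1) lower in PH20_TG. The list medians were 0.62 and 0.40, the median difference of differences was 0.19, and 8 of the 19 had different signs in the 2 lines. Those with a lower difference of differences were Col15a1, Col4a2, Col5a3 and Col4a1 (21.1%, against 3.83% of all genes), and 0 were higher. Col15a1, a basement membrane collagen, was at 25.5, 33.0, 66.3 and 50.7 FPKM in Has2_TG, 32.3, 57.3, 69.7 and 76.7 in Has2_WT, 56.4, 52.3, 44.9 and 41.6 in PH20_TG and 26.1, 31.9, 30.3 and 29.8 in PH20_WT. The PH20 groups separated and the Has2 groups overlapped. Col4a2, a chain of basement membrane collagen IV, had a difference of differences of -0.72 (SE 0.28). The count of 4 was 2 without Has2_WT4, Has2_TG1 or Has2_TG2 and 0 with the skeletal muscle score as a covariate, and 1 with quantile normalization. Of 22 collagen enzymes tested of 27, 2 (9.09%, against 3.65% of all genes) were higher (P3h4 and Pcolce2, list median 0.15) and 0 lower. Of the 22, 10 were called higher in Has2_TG and 3 higher in PH20_TG. P3h4, which belongs to the collagen hydroxylation machinery, had a difference of differences of 1.21 (SE 0.43), and Pcolce2, an enhancer of procollagen C-proteinase, of 2.69 (SE 1.04).

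The hyaluronan genes themselves were few above the limit. Of 28, 16 were tested, with 1 higher (Lyve1) and 1 lower (Ncan) difference of differences and a list median of 0.28. These were 6.25% each, against 3.65% and 3.83% of all genes. Has1, Has3, Hmmr and Cemip were among the 12 below the limit. Lyve1, a hyaluronan receptor of lymphatic vessels and some macrophages, was at 21.4, 22.1, 17.8 and 12.5 FPKM in Has2_TG, 13.3, 7.11, 5.81 and 19.0 in Has2_WT, 18.7, 1.57, 0.862 and 10.8 in PH20_TG and 14.8, 9.10, 12.2 and 14.1 in PH20_WT. As with the macrophage genes, PH20_TG2 and PH20_TG3 were the low libraries. The call for Lyve1 was lost under 10 of 31 alternatives, among them the skeletal muscle covariate (2.08) and leaving out Has2_WT2, Has2_WT3, Has2_TG1, Has2_TG2, PH20_WT1, PH20_WT4, PH20_TG2 or PH20_TG3, and the call for Ncan under 0 of 31.

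**Figure D5:**
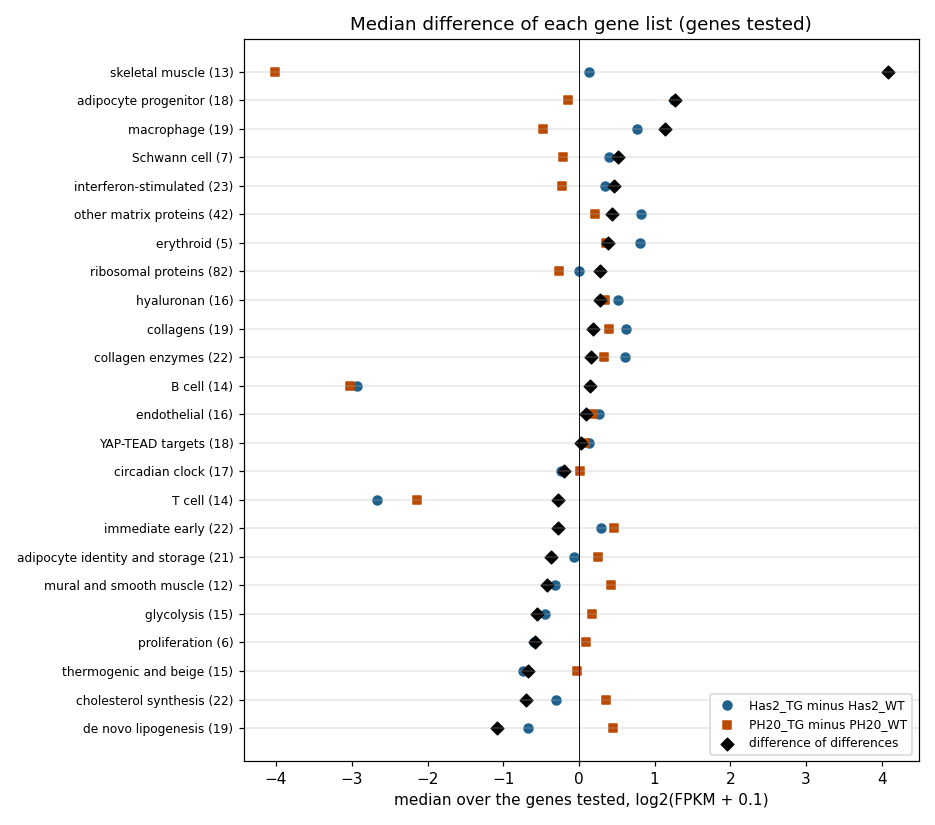
Median log2 difference (x axis) of 24 gene lists (y axis, with the number of genes tested) for Has2_TG minus Has2_WT (circles), PH20_TG minus PH20_WT (squares) and the difference of differences (diamonds). B and T cell genes have low medians in both lines and a difference of differences near 0, and the skeletal muscle list has a median of 0.14 in the Has2 line and -4.02 in the PH20 line.

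Thermogenic and beige genes mark fat cells that burn fuel to make heat. Of 15 tested of 19, 3 had a lower (Prdm16, Acot11 and Otop1) and 1 a higher (Ebf2) difference of differences, with a list median of -0.67. These were 20% and 6.67%, against 3.83% and 3.65% of all genes. In the Has2 comparison 6 were called lower and 1 higher in Has2_TG, and in the PH20 comparison 0 were called lower and 1 higher in PH20_TG. Between the controls 7 were called, all higher in Has2_WT. The count of 3 lower genes was 10 with the skeletal muscle score as a covariate and 1 without the 4 control libraries rich in B cell genes. Ucp1, the uncoupling protein of thermogenic fat, was at 206, 36.3, 7.31 and 16.4 FPKM in Has2_TG and 82.6, 215, 275 and 74.4 FPKM in Has2_WT. It was at 29.7, 11.8, 81.4 and 28.5 FPKM in PH20_TG and 9.98, 52.4, 32.6 and 28.4 FPKM in PH20_WT. Has2_TG1 lay within the range of Has2_WT and the other 3 below it, and the PH20 groups overlapped throughout. Its difference of differences was -2.34 (95% interval -4.95 to 0.26, limma adjusted p = 0.708).

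Acot11, an acyl-CoA thioesterase induced in brown fat by cold, was at 5.41, 2.64, 0.318 and 1.33 FPKM in Has2_TG and 11.9, 8.28, 23.0 and 7.25 FPKM in Has2_WT. It was at 2.13, 1.68, 5.31 and 3.20 FPKM in PH20_TG and 1.05, 3.51, 2.31 and 4.01 FPKM in PH20_WT. The difference of differences was -2.92 (SE 0.93, limma adjusted p = 0.606), and Has2_WT was the only group that stood apart. Cidea, a lipid droplet protein, was at 92.2 to 400 FPKM in Has2_TG, 234 to 487 in Has2_WT, 142 to 446 in PH20_TG and 136 to 451 in PH20_WT, with a difference of differences of -0.38 (95% interval -1.80 to 1.03). Cox7a1, a cytochrome oxidase subunit, had -1.07 (95% interval -2.92 to 0.78), Pdk4, which restrains pyruvate oxidation, -0.46 (95% interval -1.76 to 0.84), and the coactivator Ppargc1a 0.16 (95% interval -0.97 to 1.29). The intervals of these 4 genes reached both sides of 0. With the skeletal muscle score as a covariate, the difference of differences was -3.81 for Ucp1, -1.22 for Cidea, -2.14 for Cox7a1 and -1.19 for Pdk4, all 4 then past the unadjusted threshold, and -0.287 for Ppargc1a. Ucp1 was also past it without Has2_TG1 (-3.26) and without PH20_TG2 (-2.79).

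All 12 mural and smooth muscle genes tested of 14 had a negative difference of differences, between -1.81 and -0.12 (list median -0.42). Of these, 4 were called (Myh11, Notch3, Cspg4 and Acta2), 33.3% against 3.83% of all genes. Myh11, the smooth muscle myosin heavy chain, was at 1.96, 2.45, 2.98 and 2.30 FPKM in Has2_TG and 5.87, 5.22, 5.00 and 3.76 FPKM in Has2_WT. It was at 4.96, 6.02, 3.53 and 10.3 FPKM in PH20_TG and 2.22, 4.12, 3.75 and 5.92 FPKM in PH20_WT, for a difference of differences of -1.59 (SE 0.44, limma adjusted p = 0.591). Notch3, the Notch receptor of mural cells, was at 4.60, 4.99, 4.75 and 5.75 FPKM in Has2_TG, 4.85, 6.20, 8.62 and 7.77 in Has2_WT, 8.47, 12.0, 7.43 and 9.37 in PH20_TG and 4.71, 7.92, 6.45 and 6.38 in PH20_WT. For this list, 1 gene was called between the controls and 4 between the transgenic groups. Without the 4 control libraries rich in B cell genes, 2 of its genes were called. Of 16 endothelial genes, 10 had a positive and 6 a negative difference of differences. In this list 1 gene (6.25%, against 3.65% of all genes) was called higher and 0 lower. It was Tek, the angiopoietin receptor (1.51, SE 0.46), and Erg had 0.33 (95% interval -0.22 to 0.89).

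The remaining lists held few calls, and the shares of all genes were 3.65% higher and 3.83% lower. YAP-TEAD targets had 1 higher (Nt5e, 5.56%) and 2 lower (F3 and Cyr61, 11.1%) of 18 tested, with a median of 0.03. Immediate early genes had 1 higher (Klf4, 1.46, SE 0.64) and 1 lower (Maff, -1.33, SE 0.54) of 22, 4.55% each. These calls were lost under 10 and 7 of 31 alternatives. Circadian clock genes had 1 higher (Nfil3, 0.90, SE 0.33) and 2 lower (Nr1d2, -0.64, SE 0.24, and Nr1d1) of 17, 5.88% and 11.8%. Of the 7 Schwann cell genes tested, 1 (14.3%) was called higher and 0 lower, with a median of 0.51. Mal, at 0.97 (95% interval -0.02 to 1.97), was not called. Between the controls 5 of the 7 were called, all lower in Has2_WT. Proliferation genes had 0 calls of 6 (Mcm2 -0.77, Mki67 -0.85), and erythroid genes 0 of 5 (Hba-a1 0.65, Hbb-bs 0.38). Smim13, a small membrane protein, was among the 6 genes with the smallest p for a higher difference of differences, 0.91 (SE 0.22), through the Has2 line, where it differed by 0.82 (SE 0.16), against -0.09 (SE 0.16) in the PH20 line.

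Ribosomal protein genes had 11 higher and 1 lower of 82 tested, 13.4% and 1.22%, against 3.65% and 3.83% of all genes. Their list median was 0.28. Between the controls 17 of the 82 were called, all lower in Has2_WT (list median -0.40). In the PH20 comparison 13 were called lower in PH20_TG, and in the Has2 comparison 0 were called. The list was drawn up by gene name and so includes the ribosomal protein-like genes Rpl3l and Rpl39l. Rpl3l was among the 11 higher genes and among the 13 lower in PH20_TG, and Rpl39l was the 1 lower gene. Rpl23a was at 177, 244, 213 and 266 FPKM in Has2_TG, 182, 214, 187 and 192 in Has2_WT, 148, 162, 155 and 178 in PH20_TG and 337, 189, 231 and 232 in PH20_WT. Rps3a2, a pseudogene, had a difference of differences of 1.12 (SE 0.34), and reads of ribosomal protein genes may be shared with their many copies. The count of 11 was 22 without PH20_WT2, 5 without PH20_TG2 and 7 without any 1 of Has2_WT3, Has2_WT4, Has2_TG2, PH20_WT1 and PH20_WT4.

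Lists of cells that the dissection could carry along were read in the same way. B cell and T cell genes had 0 calls of 14 and of 14 and lymph node stroma genes 0 of 3, with medians of 0.14, -0.28 and -0.51. Their medians were low in both lines, -2.94 and -3.02 for B cell, -2.67 and -2.14 for T cell and -3.39 and -2.88 for lymph node stroma genes, for the Has2 and the PH20 line. Named members had wide intervals, such as -2.29 (95% interval -6.46 to 1.89) for Fcrla, -1.94 (-7.32 to 3.43) for Cd22, -1.65 (-7.71 to 4.42) for Ccr7, 1.70 (-1.32 to 4.73) for Cxcl13 and -1.47 (-7.52 to 4.58) for Ccl21a. Skeletal muscle genes had a list median of 4.08, with 2 called higher (Myh1 and Acta1) of 13 tested, 15.4% against 3.65% of all genes. In the PH20 comparison 12 of the 13 were called lower in PH20_TG. Acta1, skeletal muscle actin, was at 154, 342, 5.77 and 7.82 FPKM in Has2_TG, 17.5, 11.1, 39.1 and 14.4 in Has2_WT, 1.98, 28.9, 20.7 and 103 in PH20_TG and 81.0, 396, 228 and 166 in PH20_WT. Myh1, a fast myosin heavy chain, had 4.83 (SE 1.76, limma adjusted p = 0.625). The muscle count of 2 was 8 without Has2_TG3, 9 without Has2_TG4, 7 without PH20_TG4, 1 without Has2_TG1, Has2_TG2 or PH20_TG1, and 0 without the 4 control libraries rich in B cell genes. In that smaller fit Myh1 was at 4.12 and Acta1 at 4.49, both short of the unadjusted threshold. The calls for Acta1 and Myh1 were lost under 6 and 3 of 31 alternatives. The count was 10 with a pseudocount of 1, 6 with quantile normalization and 0 with the skeletal muscle score as a covariate. That score is the mean of these same genes, so the covariate removes their own signal and its 0 says nothing about them. It is among the 6 and 3 alternatives.

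The study itself compiled lists of opposed genes on these samples, so their direction here is no independent evidence. Of its 19 genes higher with Has2 and lower with PH20, 14 were above the limit and all 14 had a higher difference of differences, with 8 called higher in Has2_TG, 11 called lower in PH20_TG and 5 called in both. Of its 35 genes of the other direction, 32 were tested and 30 had a lower difference of differences, with 19 called lower in Has2_TG, 27 called higher in PH20_TG and 16 called in both. Between the controls 14 of the 14 and 27 of the 32 were called.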

How the data were processed

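Per the labels, total RNA of iWAT was made into Illumina TruSeq libraries. The submitters' processing notes name FastQC 0.11.9, STAR 2.7.9a, MultiQC 1.12, DESeq2 and GRCm38, and the file deposited by the authors holds FPKM per gene. The deposited FPKM had equal medians of ratios across the 16 libraries, so values are relative to the typical gene. FPKM steps gave whole reads within 0.01 for 100% of values, used as depth and for voom. Genes with a mean of at least 1 FPKM were fitted on log2(FPKM + 0.1) with limma 3.58.1 (R 4.3.3, variance trend, 12 residual degrees of freedom), with Benjamini-Hochberg adjustment over all genes tested. Fold changes of low genes are understated on this scale. No 2 libraries agreed within sampling noise. Scripts were tested on simulated data. Genes named were the 6 smallest p of the difference of differences per direction, the 5 largest opposed differences per direction, 2 members of each list with the smallest p, and Has2, Spam1, Ucp1, Cidea, Cox7a1, Pdk4, Ppargc1a and Prdm16, except 2 list members that are not reported here. Other genes are named as called list members or as chosen after their values were seen. The members and lists were chosen with earlier results of these data known. The epithelium list had 0 genes above the limit. Alternatives were another pseudocount, other filters, quantile scaling, voom, library weights, separate fits, a replicate block, B cell and muscle covariates and leaving out each library. Leaving out 4 control libraries rich in B cell genes, leaving out Has2_WT4 with PH20_TG1, protein-coding genes alone and scaling to total reads were added after seeing the data.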

Additional observations from a re-analysis of the deposited data

Results flagged for a closer look

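The groups of both lines separated without overlap in opposite directions for Rpl17-ps8 (log2 difference of differences 2.71), Tslp (3.55), Gstm1 (0.84), Pfdn5 (0.76), Tmem241 (-1.33), Tmem268 (-1.13) and Kctd3 (-0.58), none of which passed an adjusted p of 0.05 (limma). Of 369 groups of 4 libraries examined for a library far from the others, 14 had one, and chance gives about 5%. The gap to the nearest library, as a share of the range of the group, was 0.955 for Smim13 (Has2_WT1 low), 0.933 for Ppargc1a (Has2_WT1 low), 0.862 for Ifit3 (Has2_WT4 high), 0.835 for Maff and 0.860 for Pgam1 (Has2_WT3 high), 0.847 for Mki67 and 0.952 for Rps3a2 (Has2_TG4 high) and 0.854 for Cxcl13 (Has2_TG1 low). It was 1 for Gm22572 (Has2_TG2 high), Gm23301 (PH20_WT3 high) and Gm25579 (Has2_TG4 high), each with 0 reads in the other 3 libraries of the group. Among list means it was 0.882 for collagens and 0.854 for collagen enzymes (Has2_WT4 high), and 0.854 for lymph node stroma (Has2_TG1 low). Spam1, below the limit for testing, had 6, 12 and 5 reads in PH20_TG2, PH20_TG3 and PH20_TG4 and 0 in all control libraries.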

How the results depend on the processing

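In the order higher in Has2_TG with lower in PH20_TG, then the reverse, the 9 and 32 opposed genes became 189 and 112 with library weights, whose iteration stopped before convergence, 36 and 57 with the replicate block and 21 and 20 with scaling to total reads, where 27 of the 41 were still opposed. Of the 41, 11 were still opposed with the B cell covariate, 14 without the 4 control libraries rich in B cell genes, 20 with the muscle covariate, 24 with library weights, 32 with the replicate block and 28 with quantile normalization. The first count was 15 with every gene with a read, 14 with quantile normalization, 18 with voom weights and 66 without Has2_WT4 and PH20_TG1, and the second 17 with each line fitted on its own 8 libraries, 10 with the B cell covariate and 21 without the 4 control libraries rich in B cell genes. The 46 same-direction calls became 226 with library weights, 85 with the replicate block, 25 with the muscle covariate, 70 with the B cell covariate and 24 without those 4 libraries. The replicate numbers were not treated as pairs, since deviations of same-numbered libraries correlated at -0.18 to 0.20 in the Has2 line and -0.03 to 0.26 in the PH20 line. The 466 higher and 489 lower differences of differences became 1199 and 1233 with library weights, 888 lower with every gene with a read, 288 higher without the 4 libraries, 758 higher without Has2_WT4 and PH20_TG1, and 323 lower with scaling to total reads. Leaving out 1 library at a time gave 305 to 709 higher and 336 to 660 lower genes, 5 to 58 and 16 to 50 opposed genes and 25 to 72 same-direction calls. At an adjusted p of 0.05 it gave 0 higher and 0 to 1 lower genes, namely Gm23301 without Has2_WT4 (limma adjusted p = 0.0123) and Gm22572 without Has2_TG2 (0.00148) or PH20_TG4 (0.0499). The sign turned for Ppargc1a (-0.0345 with library weights, -0.29 with the muscle covariate, -0.0849 without Has2_WT1, -0.148 without Has2_TG1, in a range of -0.148 to 0.520 over the libraries left out), Ccr7 (0.58) and Ccl21a (1.64, both library weights), Cidea (0.0662 without the 4 libraries) and Hbb-bs (-0.0037 without PH20_TG1, in a range up to 0.678, -0.0031 without Has2_WT4 and PH20_TG1). The cause of these moves was not tested. Of 2090 values for 68 named genes, 2005 kept direction and side of the unadjusted threshold, 54 lost the call, 22 gained it and 9 turned. Median-of-ratios scaling left the values as they were.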

Other observations

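Small RNA genes (snRNA, snoRNA and related classes) were called more often in 1 direction than in the other. Of 224 tested, 7 had a higher and 19 a lower difference of differences, 3.12% and 8.48%, against 3.72% and 3.72% of 11222 protein-coding genes. Their median difference of differences was -1.08, on a median of 4.81 reads per library. In the Has2 line 19 were called lower, and in the PH20 line 14 were called higher. The number of snRNA and snoRNA genes with at least 1 read was 147 to 182 in 7 libraries (Has2_WT2, Has2_WT3, Has2_TG2, PH20_WT3, PH20_TG2, PH20_TG3 and PH20_TG4) and 33 to 87 in the other 9. They held 576 to 1374 reads per library. The same 7 libraries had 20416 to 21986 genes of any class with at least 1 read, against 15857 to 18573 in the other 9. The part of this split in the calls was not tested.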
